A study of Mus musculus with 18 samples.

Results

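The genes described here are Zp1, Zp2 and Zp3, which encode the glycoproteins of the mouse egg coat, and Astl, which encodes the egg protease ovastacin. They were taken by symbol: 4 genes of 47069 listed for each oocyte, all 4 among the 12037 that passed a filter on low counts. The zona pellucida is the extracellular coat that surrounds the mammalian egg. It is built by the growing oocyte, which transcribes the zona genes strongly and falls transcriptionally silent before meiosis resumes. Ovastacin is stored in cortical granules under the egg membrane. After fertilization it is released and cleaves the ZP2 protein, after which sperm no longer bind the coat.

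Each library came from 1 oocyte of a C57BL/6 wild-type mouse and was made by SMART-seq2, a method that primes on the poly(A) tail of RNA. The labels' protocols describe a gentle lysis after which the nucleus was spun down and the supernatant used. At 12 months (12m) and at 6 weeks (6wk) there were 3 kinds of oocyte, 3 of each: metaphase II oocytes from in vitro maturation with MSC (MSC-IVM-MII), metaphase II oocytes from in vitro maturation alone (IVM-MII), and oocytes at the germinal vesicle stage (GV), before meiosis resumes. The labels use MSC without expanding it; co-culture ran overnight. The series' design text also speaks of oocytes matured in vivo, but each of the 12 metaphase II oocytes used here is labelled as matured in vitro, and that label was followed. The labels name no animal, litter or culture, so a group of 3 oocytes counts as 1 sample and no test was made. An SD after ± is the spread over 3 oocytes and says nothing of the spread between animals.

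The 18 libraries held between 1914072 and 9193559 counts. Of 10 oocyte markers, 9 were detected in every library and Ddx4 was at 0 in 3. Apart from the rest stood the 2 metaphase II oocytes whose titles begin with Y01, a prefix that the labels do not explain: MSC-IVM-MII 6wk oocyte 1 and IVM-MII 6wk oocyte 1. Mitochondrially encoded genes took 3.03% and 3.22% of their counts, against 6.04% to 14.9% in the other 10 metaphase II oocytes and 0.917% to 3.70% in the 6 GV oocytes. The 4 genes together took 0.105% to 0.193% of their counts, against 0.0105% to 0.0453% in the other 10 and 0.435% to 1.59% in GV oocytes. GV 12m oocyte 3 held cumulus and granulosa markers at a summed 2520 CPM (counts relative to a scaled library size). The remaining 5 GV oocytes held 75.7 to 254 CPM of them and the 12 metaphase II oocytes 0.445 to 87.5 CPM. Of the 22 markers in that list 9 passed the filter. Inha reached 915 CPM and Gja1 672 CPM, and Cyp19a1 was at 0 in 2 of the 18 libraries, while Foxl2, Amh and Fshr were at 0 in 15, 17 and 16. Summed mesenchymal stromal markers stayed at or below 16 CPM in every library, and Thy1, Eng and Nt5e were at 0 in all 18.

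In GRCm38, Zp3 (ENSMUSG00000004948) lies on chromosome 5 from 135980099 to 135988624 on the plus strand, in 8 exons. Zp1 (ENSMUSG00000024734) lies on chromosome 19 from 10914287 to 10920632 on the minus strand, in 12 exons. Zp2 (ENSMUSG00000030911) lies on chromosome 7 from 120126772 to 120145291 on the minus strand, in 18 exons. Astl (ENSMUSG00000050468) lies on chromosome 2 from 127338639 to 127357651 on the plus strand, and its transcript Astl-202, the one used here, has 9 exons. All 4 are protein coding, and no pair shares a chromosome.

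The 3 zona genes shared a feature of structure that Astl did not. Their principal transcripts in GENCODE M21 carry 3′ untranslated regions of 34 bases (Zp1), 49 bases (Zp2) and 13 bases (Zp3). That of Astl-202 is 876 bases long, close to the median of 821 bases over 20755 genes. A region as short as that of Zp3 or shorter occurs in 0.3% of those genes, and the shares are 1.45% for Zp1 and 2.46% for Zp2. The hexamer AATAAA, the usual poly(A) signal, lies within the last 40 bases of all 4 transcripts, as in 54.5% of 21767 genes. In Zp3 it begins 18 bases from the end and so overlaps the stop codon TAA.

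RefSeq promoter windows were at hand for Zp3 and Astl. They are shown because Figla is a basic helix-loop-helix factor known to bind E-boxes of the zona promoters in mice. Figla was lower in metaphase II than in GV oocytes, and whether this bears on the zona genes was not tested. The capitals mark every E-box, searched as CANNTG, which reads the same on both strands; each window has 240 bases and ends before the transcription start.
Zp3, chr5:135979855-135980094, plus strand, GRCm38.p6: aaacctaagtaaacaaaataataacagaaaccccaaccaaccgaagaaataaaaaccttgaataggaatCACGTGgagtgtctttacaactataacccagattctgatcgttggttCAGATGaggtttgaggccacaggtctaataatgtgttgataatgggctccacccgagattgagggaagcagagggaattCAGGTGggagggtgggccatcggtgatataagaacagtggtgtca
Astl, chr2:127341386-127341625, plus strand, GRCm38.p6: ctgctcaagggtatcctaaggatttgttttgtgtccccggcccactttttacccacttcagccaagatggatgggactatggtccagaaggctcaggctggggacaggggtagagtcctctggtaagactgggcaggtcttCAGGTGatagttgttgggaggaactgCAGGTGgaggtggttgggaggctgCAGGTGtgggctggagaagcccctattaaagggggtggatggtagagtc
Both windows hold 3 E-boxes. In Zp3 they begin 181, 134 and 55 bases before the start, and the first reads CACGTG. In Astl they begin 109, 83 and 59 bases before the start, and all read CAGGTG. Of 32851 RefSeq windows of the same length, 65.0% held at least 1 CANNTG, 11.3% held 3 or more, and 5.7% held CACGTG. Zp3 also has TATAA 29 bases before its start, a match found in the last 40 bases of 4.5% of windows. The Astl window lies in the first intron of the transcript that starts farthest upstream, and the window of that upstream start held no CANNTG. These are matches of letters, not measured binding.

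Zp3, which encodes a structural subunit of the filaments and, in the mouse, a protein long studied for sperm binding, was among the most abundant transcripts of GV oocytes and dropped by over 5 log2 units in metaphase II oocytes. In TPM, a share of transcripts that allows for transcript length, MSC-IVM-MII 12m oocytes had 102.82, 24.4 and 122.7, IVM-MII 12m oocytes had 84.3, 116 and 191, and GV 12m oocytes had 11112, 5933.5 and 2717.5. At 6wk, MSC-IVM-MII oocytes had 586, 36.9 and 41.8 TPM, IVM-MII oocytes had 136, 39.1 and 69.5 TPM, and GV oocytes had 7295, 6956 and 9653 TPM. Every metaphase II oocyte lay below every GV oocyte. Ranked by TPM among all genes of its library, Zp3 stood between places 281 and 2755 in metaphase II oocytes and between places 6 and 36 in GV oocytes. By itself it took 0.00251% to 0.0522% of the counts of a metaphase II oocyte and 0.292% to 1.48% of those of a GV oocyte.

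**Figure D1:**
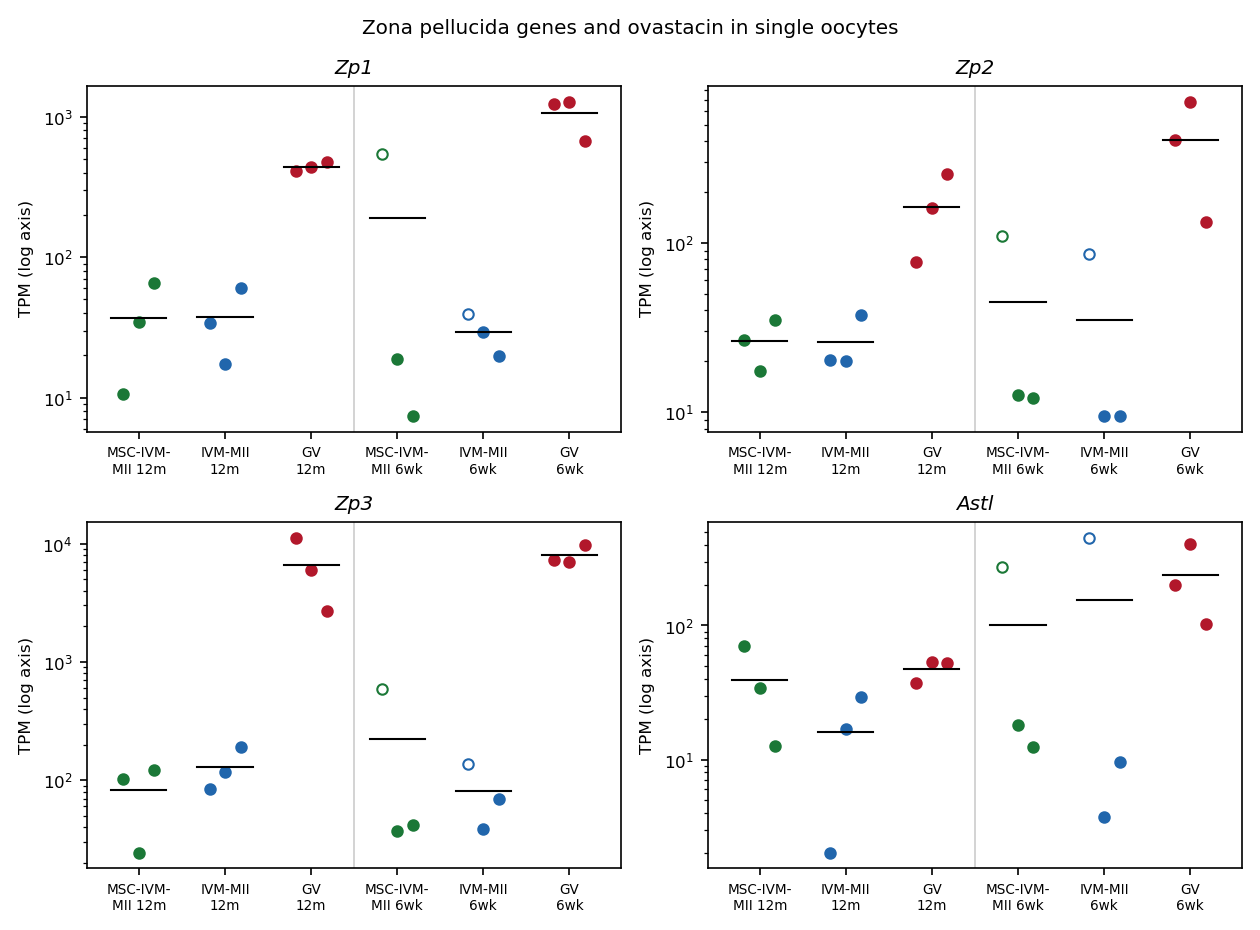
TPM (log axis) of Zp1, Zp2, Zp3 and Astl in each oocyte, 1 point per oocyte, by group; black lines are group means, and open points are the 2 metaphase II oocytes whose titles begin with Y01. The GV points of Zp1, Zp2 and Zp3 lie above all metaphase II points of the same age, while the open points of Astl, at 273 and 448 TPM, lie above the lowest GV 6wk point, at 102.67 TPM.

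Zp1, whose protein cross-links the filaments, followed with a smaller drop. It had 10.6, 34.3 and 65.1 TPM in MSC-IVM-MII 12m oocytes, 34.3, 17.3 and 60.0 TPM in IVM-MII 12m oocytes and 408, 434 and 472 TPM in GV 12m oocytes. At 6wk it had 539, 19.0 and 7.39 TPM in MSC-IVM-MII oocytes, 39.1, 29.2 and 19.9 TPM in IVM-MII oocytes and 1236, 1276 and 671 TPM in GV oocytes. Within an age the metaphase II and GV oocytes did not overlap, although MSC-IVM-MII 6wk oocyte 1, of prefix Y01, held 539 TPM, above the 3 GV 12m oocytes. The group means fell to 36.7 ± 27.3 TPM in MSC-IVM-MII 12m, against 438 ± 32.2 TPM in GV 12m (SD, 3 oocytes each). Among GV 12m oocytes the highest Zp1 level was 1.16 times the lowest in TPM, while in CPM the oocytes stood at 1215, 938 and 578.

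Zp2, the subunit that ovastacin cleaves, was the least abundant zona transcript in every GV oocyte and had the smallest drop of the zona genes on the log2 scale. MSC-IVM-MII 12m oocytes had 26.6, 17.4 and 35.0 TPM, IVM-MII 12m oocytes had 20.4, 20.03 and 37.5 TPM, and GV 12m oocytes had 76.8, 161 and 254 TPM. At 6wk, MSC-IVM-MII oocytes had 109, 12.7 and 12.2 TPM, IVM-MII oocytes had 86.2, 9.52 and 9.48 TPM, and GV oocytes had 406.88, 683 and 133 TPM. Again no metaphase II oocyte reached a GV oocyte of its own age. The 2 oocytes of prefix Y01 held 109 and 86.2 TPM, above the 9.48 to 37.5 TPM of the other 10 metaphase II oocytes and above GV 12m oocyte 1.

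Astl levels in metaphase II oocytes spread over more than 2 orders of magnitude, from 2.02 to 448 TPM. In the 10 not of prefix Y01 they ran from 2.02 to 70.2 TPM. Zp1 also spread widely over the 12 metaphase II oocytes, from 7.39 to 539 TPM. MSC-IVM-MII 12m oocytes had 70.2, 34.1 and 12.6 TPM, IVM-MII 12m oocytes had 2.02, 16.9 and 29.2 TPM, and GV 12m oocytes had 37.0, 53.2 and 52.5 TPM. At 6wk, MSC-IVM-MII oocytes had 273, 18.2 and 12.5 TPM, IVM-MII oocytes had 448, 3.74 and 9.57 TPM, and GV oocytes had 201.74, 405 and 102.67 TPM. IVM-MII 12m oocytes all lay below GV 12m oocytes, and the other 3 metaphase II groups overlapped the GV oocytes of their age. IVM-MII 6wk oocyte 1, of prefix Y01, had the highest Astl level of all 18 libraries, from 3127 counts, while its Zp1 (39.1 TPM) and Zp3 (136 TPM) were as low as in other metaphase II oocytes. The deposited tables list 4 transcripts of Astl, with a mean length between 2088 and 2251 bases in metaphase II oocytes and between 2239 and 2249 bases in GV oocytes. Which transcript the reads came from was not examined.

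To compare groups, differences were taken between means of log2(CPM + 1), and a gene was counted as lower or higher only if the difference was at least 1 in size and the 2 groups did not overlap. By this rule 3 of the 4 genes (Zp1, Zp2 and Zp3) were lower in MSC-IVM-MII 12m than in GV 12m oocytes, where 28% of the 12037 genes were lower. All 4 were lower in IVM-MII 12m than in GV 12m oocytes, against 25.5% of all genes. At 6wk Zp1, Zp2 and Zp3 (3 of 4) were lower in MSC-IVM-MII than in GV oocytes, where 27.3% of all genes were, and the same 3 were lower in IVM-MII oocytes, where 28.3% of all genes were. The 2 comparisons of an age share their GV oocytes. The share of all genes that were higher is not given for these 4 comparisons, so counts of higher genes below have no background. The median difference of the 4 genes was −3.42, −3.12, −4.23 and −4.69 in these 4 comparisons, where the median over all genes was −0.60, −0.52, −0.29 and −0.52.

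Sizes differed by gene. Zp3 averaged 87.9 ± 54.2 CPM in MSC-IVM-MII 12m, 160 ± 48.9 CPM in IVM-MII 12m and 10230 ± 9547 CPM in GV 12m oocytes (SD, 3 oocytes each). That is 116-fold lower with MSC and 63.9-fold lower without, with differences of −6.58 and −5.48. At 6wk Zp3 averaged 188 ± 246 CPM in MSC-IVM-MII, 80.2 ± 34.8 CPM in IVM-MII and 9285 ± 3574 CPM in GV oocytes, which is 49.5-fold and 116-fold lower (differences −6.46 and −6.86). Without the Y01 metaphase II oocytes, of which MSC-IVM-MII 6wk oocyte 1 held 472 CPM and the other 2 of its group 42.7 and 48.6 CPM, the differences were −7.57 and −7.17, with the Y01 GV oocytes kept. Few genes fell further than Zp3. At 12m 0.382% of all genes had a lower difference with MSC and 0.856% without, and at 6wk 0.224% with MSC and 0.166% without. On this scale a gene cannot fall by more than its GV level, and the shares were not matched for level. The summed Zp3 count was 940 (exact Poisson 95% interval 881 to 1002) in IVM-MII 6wk and 94401 (93800 to 95005) in GV 6wk, so counting error was small beside the spread between oocytes.

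Zp1 was 14.7-fold lower in MSC-IVM-MII 12m and 12.8-fold lower in IVM-MII 12m than in GV 12m oocytes (differences −4.11 and −3.70). It was 7.44-fold lower in MSC-IVM-MII 6wk and 38.7-fold lower in IVM-MII 6wk than in GV 6wk oocytes (differences −4.66 and −5.24). The smaller fold of MSC-IVM-MII 6wk rests on its oocyte 1: without the Y01 oocyte the difference was −6.31. Zp2 was 6.63-fold and 5.88-fold lower in MSC-IVM-MII and IVM-MII oocytes at 12m (differences −2.73 and −2.54), and 10.7-fold and 13.3-fold lower at 6wk (differences −3.79 and −4.13). Both 6wk folds rest on the Y01 metaphase II oocytes, which held 162 and 133 CPM, and without them the differences were −4.65 and −5.02, with the Y01 GV oocytes kept. By these log2 differences Zp2 had the smallest drop of the zona genes in each of the 4 comparisons; by the fold of mean CPM, Zp1 had the smallest in MSC-IVM-MII 6wk.

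Astl was 3.31-fold lower in IVM-MII 12m than in GV 12m oocytes (34.2 ± 26.0 against 113 ± 32.6 CPM, difference −2.19). In the other 3 comparisons the groups overlapped, with differences of −0.81 for MSC-IVM-MII 12m, −2.49 for MSC-IVM-MII 6wk and −3.05 for IVM-MII 6wk. At 6wk the Y01 metaphase II oocytes made the overlap: without them the differences were −3.72 for MSC-IVM-MII and −4.93 for IVM-MII, with no overlap. GV 6wk oocytes 1 and 2, also of prefix Y01, stayed in. These differences thus set metaphase II oocytes of prefix Y03 against GV oocytes of both prefixes, so prefix and stage are mixed in them. Leaving out MSC-IVM-MII 12m oocyte 1, which held 144 CPM, gave −1.40 with no overlap at 12m, and leaving out GV 6wk oocyte 3 gave −2.84 with no overlap for MSC-IVM-MII 6wk. Among oocytes whose titles share a prefix, the mean Astl differences were −0.39 for MSC-IVM-MII 12m, −1.77 for IVM-MII 12m, −1.71 for MSC-IVM-MII 6wk and −1.93 for IVM-MII 6wk, without overlap in IVM-MII 12m and MSC-IVM-MII 6wk. Taken likewise within prefixes, Zp3 differed by −5.64, −4.59, −6.04 and −6.86 in the same order, Zp1 by −4.21, −3.30, −3.77 and −5.13, and Zp2 by −2.88, −2.62, −3.10 and −3.43, all without overlap.

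**Figure D2:**
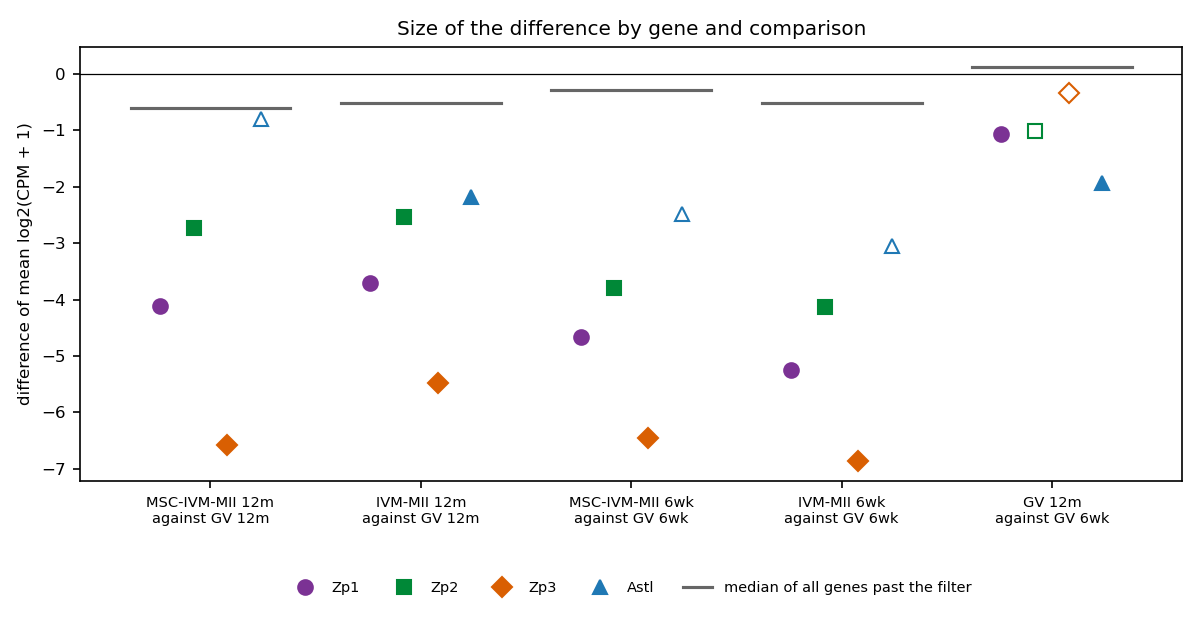
Difference of mean log2(CPM + 1) between groups for Zp1, Zp2, Zp3 and Astl in the 4 comparisons of metaphase II with GV oocytes and in GV 12m against GV 6wk; filled symbols differ by at least 1 with no overlap of oocytes, open symbols do not, and the grey bars are medians over 12037 genes. Zp3 lies lowest in each maturation comparison, at −6.58, −5.48, −6.46 and −6.86 from left to right.

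The difference between IVM-MII and GV oocytes was closer to 0 at 12m than at 6wk by 1.54 for Zp1, 1.59 for Zp2, 1.38 for Zp3 and 0.86 for Astl, and these differences between ages were not tested. With MSC the differences at 12m and at 6wk were −4.11 and −4.66 for Zp1, −2.73 and −3.79 for Zp2, −6.58 and −6.46 for Zp3, and −0.81 and −2.49 for Astl, so Zp3 was not closer to 0 at 12m. Of the 9 cumulus and granulosa markers that passed the filter, 4 were also lower in each 12m comparison, 4 in MSC-IVM-MII 6wk (where 1 was higher) and 2 in IVM-MII 6wk. Over all genes between 25.5% and 28.3% were lower, but the counts of markers cannot be weighed against this share. The markers that were lower were among Inha, Cyp11a1, Gja1 and Hsd17b1. These averaged 2.58 CPM or less in every metaphase II group and passed the filter mainly through GV oocytes. That they were lower was thus largely fixed by the filter. The part of these markers in the result was not tested. Without GV 12m oocyte 3, the library richest in those markers, all 3 zona genes were still lower in both 12m comparisons, and the same held for every other single oocyte left out.

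The zona genes dropped by unequal amounts, and the make-up of the zona transcripts differed between stages. Zp3 made up 32.1% to 75.7% of the summed zona TPM in the 12 metaphase II oocytes and 78% to 95.8% in the 6 GV oocytes. Of metaphase II oocytes, IVM-MII 12m oocyte 2 had the highest Zp3 share and MSC-IVM-MII 12m oocyte 2 the lowest, where Zp1 held 45.0%. Zp2 made up 8.86% to 32.9% in metaphase II oocytes and 0.662% to 7.66% in GV oocytes, with no overlap. Zp1 shares overlapped, at 7.58% to 45.0% in metaphase II oocytes and 3.52% to 14.3% in GV oocytes.

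**Figure D3:**
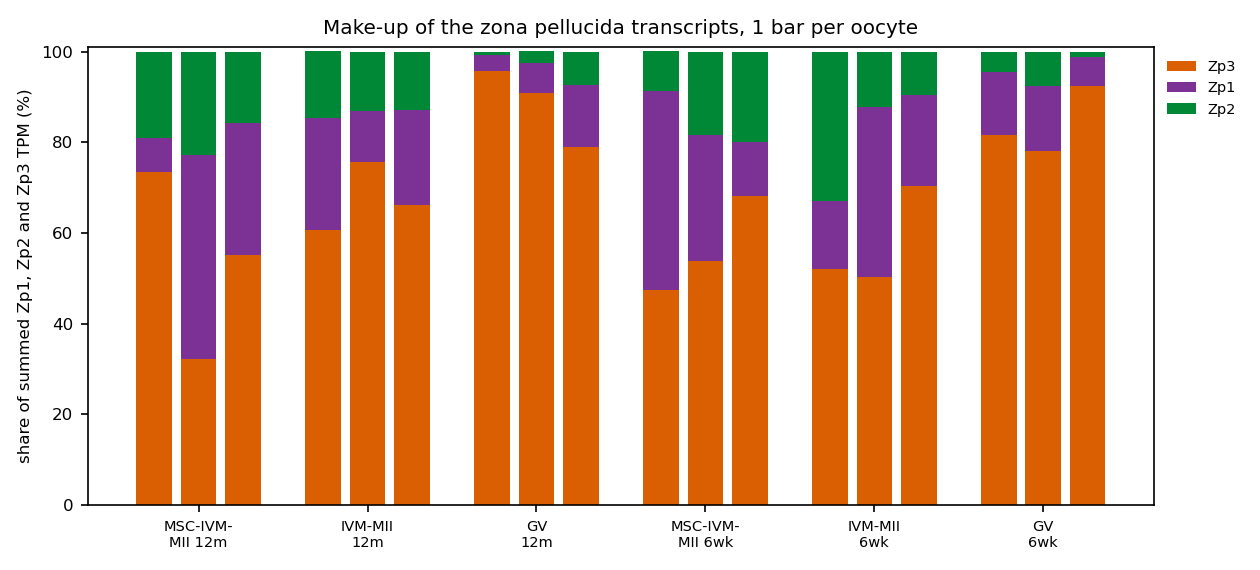
Share of the summed TPM of Zp1, Zp2 and Zp3 held by each gene, 1 bar per oocyte, 3 bars per group. Zp3 fills at most 75.7% of a metaphase II bar and at least 78% of a GV bar.

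The TPM ratio of 2 genes within an oocyte does not depend on how the library is scaled. The ratio of Zp2 to Zp3 was 0.259, 0.713 and 0.285 in MSC-IVM-MII 12m, 0.241, 0.172 and 0.196 in IVM-MII 12m and 0.00691, 0.0272 and 0.0936 in GV 12m oocytes. At 6wk it was 0.187, 0.344 and 0.291 in MSC-IVM-MII, 0.632, 0.244 and 0.136 in IVM-MII and 0.0558, 0.0982 and 0.0138 in GV oocytes. Every metaphase II oocyte thus lay above every GV oocyte. On the log2 scale, with 1 TPM added, the ratio was higher than in GV oocytes of the same age by 3.87 with MSC and 2.99 without at 12m, and by 2.70 with MSC and 2.78 without at 6wk.

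The ratio of Astl to Zp3 was likewise higher in all 4 comparisons without overlap, by 5.79 with MSC and 3.48 without at 12m, and by 4.02 with MSC and 3.90 without at 6wk. It lay between 0.0240 and 3.28 in metaphase II oocytes and between 0.00333 and 0.0583 in GV oocytes. In IVM-MII 6wk oocyte 1 and MSC-IVM-MII 12m oocyte 2, at 3.28 and 1.39, Astl exceeded Zp3. The ratio of Zp1 to Zp3 was higher without overlap at 6wk, by 1.82 in MSC-IVM-MII and 1.64 in IVM-MII, although for MSC-IVM-MII this rests on the added TPM: the plain ratio of its oocyte 3, at 0.177, lay below that of GV 6wk oocyte 2, at 0.183. At 12m the groups overlapped, with differences of 2.49 for MSC-IVM-MII and 1.82 for IVM-MII.

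**Figure D4:**
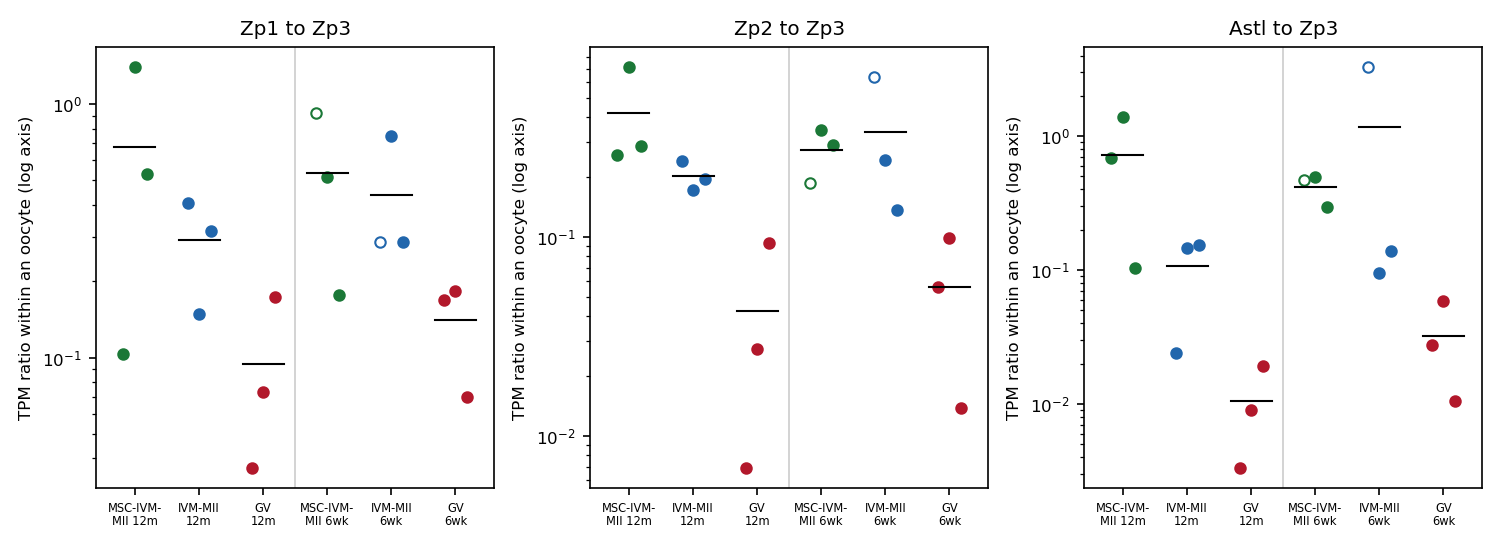
Ratio of the TPM of Zp1, Zp2 and Astl to that of Zp3 within each oocyte (log axis), 1 point per oocyte; black lines are group means and open points the 2 metaphase II oocytes whose titles begin with Y01. The metaphase II points of Zp2 to Zp3 run from 0.136 to 0.713 and the GV points from 0.00691 to 0.0982.

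Between the ages of GV oocytes, Astl differed most of the 4 genes. Among GV 12m and GV 6wk oocytes 2 of the 4 genes, Astl and Zp1, were lower at 12m, where 4.3% of all genes were lower or higher. Astl averaged 113 ± 32.6 CPM in GV 12m and 456 ± 203 CPM in GV 6wk oocytes, 4.03-fold lower (difference −1.94), and 0.266% of all genes had a lower difference. The 3 GV 12m oocytes held 130, 134 and 75.6 CPM and the 3 GV 6wk oocytes 437, 667 and 262 CPM. Zp1 averaged 910 ± 319 CPM in GV 12m and 1854 ± 413 CPM in GV 6wk oocytes, 2.04-fold lower (difference −1.07).

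Zp2 was 2.25-fold lower by means in GV 12m oocytes (difference −1.02), but the groups overlapped, since GV 6wk oocyte 3 held 334 CPM. Zp3 differed by −0.34, with overlap, and by −1.13 to 0.53 over the alternatives run. Single oocytes carried some of these calls. Without GV 12m oocyte 3 Zp1 differed by −0.77, and without GV 6wk oocyte 1 by −0.90, both short of 1, which left Astl as the 1 gene that was lower. GV 12m oocyte 3, with cumulus and granulosa markers at a summed 2520 CPM, had the lowest Zp1 of its group in CPM (578) and the highest in TPM (472). With deposited TPM the Zp1 difference between the ages was −1.22, with no overlap. Without GV 6wk oocyte 3 Zp2 differed by −1.54 with no overlap, and 3 genes were lower. No title prefix holds oocytes of both ages, so prefix and age cannot be told apart.

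In metaphase II oocytes none of the 4 genes (0 of 4) met the rule between ages, with 5.71% of all genes lower or higher in MSC-IVM-MII 12m against 6wk and 6.82% in IVM-MII 12m against 6wk. Zp1, Zp2, Zp3 and Astl differed by −0.51, 0.03, −0.47 and −0.26 in MSC-IVM-MII oocytes and by 0.47, 0.56, 1.04 and −1.09 in IVM-MII oocytes. Without IVM-MII 6wk oocyte 1, of prefix Y01, Zp2 and Zp3 were higher in IVM-MII 12m, by 1.46 and 1.34 with no overlap, and Astl differed by 0.80 in place of −1.09. Without MSC-IVM-MII 6wk oocyte 1, the other Y01 oocyte, the MSC-IVM-MII differences became 1.13, 0.89, 0.64 and 0.97, and none met the rule. Without IVM-MII 12m oocyte 1 Zp3 was higher, by 1.29.

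Co-culture with MSC gave no call either. At 12m 0 of the 4 genes met the rule between MSC-IVM-MII and IVM-MII oocytes, against 4.88% of all genes, and at 6wk 0 of 4, against 3.93%. At 12m Zp1, Zp2, Zp3 and Astl differed by −0.41, −0.19, −1.10 and 1.38, and within title prefixes by −0.91, −0.26, −1.04 and 1.38. The Zp3 difference at 12m reached −1.35 with no overlap without IVM-MII 12m oocyte 1, and the Astl difference 2.04 without MSC-IVM-MII 12m oocyte 3. The ratio of Zp2 to Zp3 was higher in all MSC-IVM-MII 12m than in all IVM-MII 12m oocytes, by 0.88 on the log2 scale, short of the 1 that the rule asks for.

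At 6wk the 4 genes differed by 0.58, 0.34, 0.41 and 0.55 between MSC-IVM-MII and IVM-MII oocytes, and within title prefixes by 1.36, 0.33, 0.81 and 0.22. These values turned on the Y01 oocytes. Without both, Zp1 differed by −0.99, Zp2 by 0.37, Zp3 by −0.40 and Astl by 1.21, and Astl had no overlap. Without MSC-IVM-MII 6wk oocyte 1 alone, Zp1 was lower by the rule, at −1.06, and without IVM-MII 6wk oocyte 1 alone, Zp2 and Astl were higher, by 1.23 and 2.44.

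Regulators of the zona genes were examined next, among 8 symbols of which 7 passed the filter. Figla and the homeobox factor Nobox were lower in all 4 maturation comparisons; Tcf3, the partner of Figla, was also lower in IVM-MII 6wk (difference −1.18), and none was higher. That made 3 of 7 lower in IVM-MII 6wk and 2 of 7 in each of the other 3 comparisons, a share near the 25.5% to 28.3% of all genes that were lower. The list medians, in the order MSC-IVM-MII and IVM-MII at 12m and then at 6wk, were −0.88, −0.56, −0.61 and −0.69.
Figla lay between 0 and 3.81 CPM in metaphase II oocytes and between 31.1 and 287 CPM in GV oocytes. It had no count in 8 of the 12 metaphase II oocytes, where 3 counts would be 0.415 to 1.34 CPM. In GV 12m oocytes it stood at 287, 117 and 31.1 CPM, the same order as Zp3 in those oocytes. That order was not particular to Figla and Zp3: the summed oocyte markers took it too, at 66300, 46100 and 13900 CPM. In CPM Zp1 shared it, as did Umodl1, Dmbt1, Fetub, Rab11a, Rab8a and Napa, described below. Nobox, Zp2 and Astl did not. Nobox lay between 121 and 437 CPM in metaphase II oocytes and between 454 and 1470 CPM in GV oocytes, with differences of −1.29 with MSC and −1.32 without at 12m, and −2.60 with MSC and −2.76 without at 6wk. Between GV 12m and GV 6wk oocytes Figla differed by 0.01 and Nobox by −0.84, both with overlap.

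**Figure D5:**
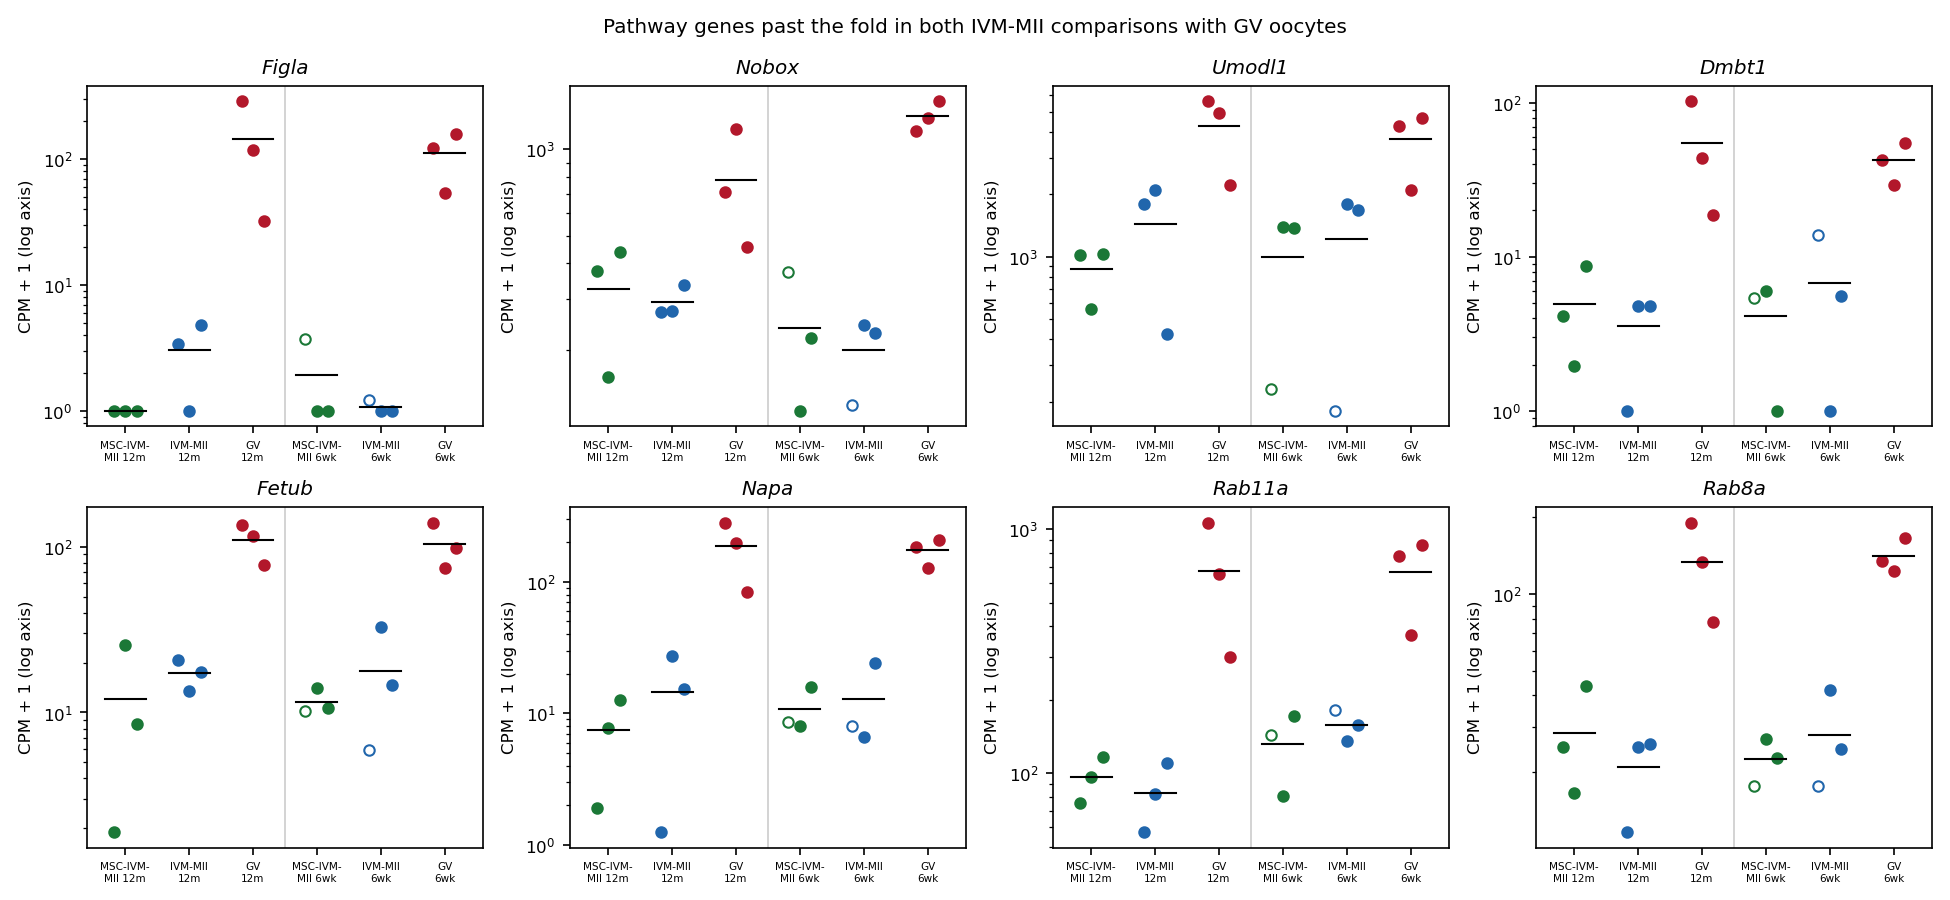
CPM + 1 (log axis) of the pathway genes that were lower in both IVM-MII comparisons with GV oocytes, 1 point per oocyte; black lines are group means and open points the 2 metaphase II oocytes whose titles begin with Y01. Figla sits at 0 CPM in 8 of 12 metaphase II oocytes, while Nobox and Umodl1 remain at 121 CPM or more.

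Relatives and partners of the zona proteins and of ovastacin came next. Fetub, which encodes fetuin-B, a plasma protein known as an inhibitor of ovastacin, had counts in all 18 oocytes. In MSC-IVM-MII 12m oocyte 1 its 0.89 CPM lay below the 1.34 CPM that 3 counts would be there. It stood at 0.89, 24.7 and 7.50 CPM in MSC-IVM-MII 12m oocytes, 19.8, 12.4 and 16.5 CPM in IVM-MII 12m oocytes and 135, 115 and 76.9 CPM in GV 12m oocytes. At 6wk it stood at 9.27, 13 and 9.64 CPM in MSC-IVM-MII oocytes, 4.94, 31.6 and 13.7 CPM in IVM-MII oocytes and 138, 73.8 and 96.6 CPM in GV oocytes. Every metaphase II oocyte lay below every GV oocyte, with differences of −3.85 and −2.66 at 12m and −3.12 and −2.83 at 6wk, in each case with MSC and then without. Both Y01 metaphase II oocytes, high in Astl, lay within the Fetub range of the other metaphase II oocytes. Fetub differed by 0.09 between GV 12m and GV 6wk. Of the 6 genes in the list of astacin proteases and fetuin-B, 3 passed the filter, of which 1, 2, 2 and 1 were lower in the same 4 comparisons (25.5% to 28.3% over all genes), and the list medians were −1.15, −2.11, −1.33 and −1.66. Tll1, which encodes a tolloid-like protease, was higher in IVM-MII 6wk (3.50 ± 1.84 CPM, against 1.13 ± 0.757 CPM in GV 6wk, difference 1.07). These are low levels, and Tll1 had no count in 2 of the 18 libraries. It did not meet the rule in IVM-MII 12m, MSC-IVM-MII 6wk or MSC-IVM-MII 12m (differences 0.73, 0.71 and −0.26).

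Of 12 ZP-domain relatives 4 passed the filter, and 2 of them were lower in each maturation comparison, against 25.5% to 28.3% of all genes, with list medians between −1.51 and −0.84. Umodl1, which encodes a ZP-domain protein, lay between 180 and 2090 CPM in metaphase II oocytes and between 2110 and 5610 CPM in GV oocytes. Its lowest value was in IVM-MII 6wk oocyte 1, where Astl was highest. Dmbt1, which encodes a scavenger receptor protein with a ZP domain, lay between 0 and 12.8 CPM in metaphase II oocytes and at 17.7 CPM or more in GV oocytes. Neither gene met the rule between GV 12m and GV 6wk oocytes, with differences of 0.18 for Umodl1 and 0.10 for Dmbt1.

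Among 22 genes of cortical granule traffic and exocytosis 19 passed the filter. At 12m 4 were lower and 3 higher with MSC, and 5 lower and 0 higher without. At 6wk 4 were lower and 2 higher with MSC, and 4 lower and 0 higher without. These shares of lower genes are close to the 25.5% to 28.3% over all genes. For the higher genes no share over all genes is given here, so their counts cannot be weighed. The list median at 12m was −0.18 with MSC and −0.11 without, and at 6wk 0.15 with MSC and 0.09 without. Rab11a, a recycling endosome GTPase with a known role in granule movement, averaged 95.2 ± 20.5 CPM in MSC-IVM-MII 12m oocytes, 82.3 ± 26.5 CPM in IVM-MII 12m oocytes and 670.0 ± 381 CPM in GV 12m oocytes, and was lower in all 4 comparisons. Rab8a, a GTPase of exocytic traffic, and Napa, which encodes an adaptor for SNARE disassembly, were lower in all 4 comparisons, with Napa at 0.241 to 26.4 CPM in metaphase II oocytes and 82.3 to 280 CPM in GV oocytes. The higher genes at 12m with MSC were Rab6a, a GTPase of Golgi traffic (difference 2.61), the SNARE gene Snap23 (1.97) and Napg (1.18), and at 6wk with MSC they were Rab6a (2.91) and the SNARE gene Vamp3 (1.21).
Of 10 genes of secretory processing, at 12m 0 were lower and 2 higher with MSC, and 2 lower and 1 higher without. At 6wk 1 was lower and 1 higher with MSC, and 0 were lower or higher without. The list medians lay between −0.30 and 0.08, where 25.5% to 28.3% of all genes were lower. The counts of higher genes here likewise stand without a share over all genes. The largest called differences of that list were −2.43 for the galactosyltransferase gene B4galt1 and −2.42 for P4hb in IVM-MII 12m, and 1.77 for the chaperone gene Canx in MSC-IVM-MII 6wk. B4galt1 was a gene of low level, with no count in 5 of the 18 libraries. It averaged 0.187 ± 0.181 CPM in IVM-MII 12m and 10.6 ± 14.2 CPM in GV 12m oocytes. P4hb averaged 14.6 ± 11.5 and 57.4 ± 20.3 CPM in the same groups. The chaperones Pdia3 and Calr, the most abundant of the list, lay at 137 to 552 and 92.4 to 299 CPM in metaphase II oocytes and at 88.7 to 253 and 58.9 to 206 CPM in GV oocytes. Pdia3 was lower in GV 12m than in GV 6wk oocytes (108 against 228 CPM, difference −1.08), and Furin, a proprotein convertase gene, was higher (difference 1.61).

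The genes whose profile over the 18 oocytes was most like that of each member were found by the root mean square difference of log2(CPM + 1), with each profile centred on its mean, among 4390 genes of at least 20 CPM. For Zp3 these were Lrrc36, the ribosomal protein gene Rps29, Figla, the proteasome subunit gene Psmb7 and Wdr18, at 0.66 to 0.72, where the median gene lay at 3.28. Rps29 has near-identical copies, among which the expected counts may be split. For Zp1 they were the glutaredoxin gene Glrx, the tubulin gene Tubb2a, the augmin subunit gene Haus1, Clpb and Dnlz, at 0.78 to 0.90 (median 2.53), and for Zp2 they were Tent5c, Tle6 of the subcortical maternal complex, Ccdc92, the clathrin light chain gene Cltb and Eefsec, at 0.60 to 0.77 (median 1.99). For Astl they were the Integrator subunit gene Ints9, Tmem59, the disulfide isomerase gene P4hb, Gdf9 and Saraf, at 0.90 to 1.03 (median 2.30). Gdf9, an oocyte growth factor, averaged 1960 ± 315 CPM in MSC-IVM-MII 12m, 2480 ± 1180 CPM in IVM-MII 12m and 12000 ± 9210 CPM in GV 12m oocytes. At 6wk it averaged 5200 ± 6430 CPM in MSC-IVM-MII, 6490 ± 9400 CPM in IVM-MII and 12300 ± 257 CPM in GV oocytes, and it met the rule in none of the 4 comparisons.
The 4 members were not each other's nearest genes. Zp2 held place 18 in the order of likeness to Zp1, and Zp1 place 69 in that to Zp2. Zp3 held place 183 in the order to Zp1 and place 1494 in the order to Zp2. Astl was nearest to Zp2, at place 342 in the order to Zp2, and held place 1177 in that to Zp3. The 18 oocytes share stage, age and title prefix in part, so these distances describe the libraries only.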

How the data were processed

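Single-oocyte SMART-seq2 libraries were deposited as 1 table per oocyte, with expected counts, TPM, FPKM and transcript lengths, per the file headers. TopHat2 2.1.1, Trim Galore 0.4.5, Cufflinks, FastQC 0.11.8 and the builds GRCm38.p5 and mm10 appear in the submitters' processing notes. For the counting tool and its annotation, the sources used here give no name. The deposited expected counts were rounded, and edgeR 4.0.16 under R 4.3.3 gave TMM scaling and a filter on low genes by group. TPM as deposited by the authors gave levels per length and ratios, and the deposited FPKM was not used. The values are relative to the other RNA of the same library. Symbols and GRCm38 coordinates came from GENCODE M21 (46488 of 47069 identifiers), and promoters from RefSeq (GRCm38.p6).

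Groups followed the labels, in 9 comparisons of 2 groups. Differences are of mean log2(CPM + 1), with a pseudocount of 1, which understates changes of low genes. Folds are ratios of mean CPM. Intervals are exact Poisson at 95% and, since reads carry no molecular identifiers, cover counting error only. Members and gene lists were chosen with earlier results of these data known, so no list is independent evidence. Named were the members, the 5 most similar genes to each, and list genes past the rule in both IVM-MII comparisons with GV oocytes (at most 4 a list, otherwise the 2 most abundant). Foxl2, Amh, Fshr, Inha, Gja1, Cyp19a1, Cyp11a1, Hsd17b1, Thy1, Eng, Nt5e, Ddx4, Tcf3, Tll1, Rab6a, Snap23, Napg, Vamp3, B4galt1, P4hb as a processing gene, Canx and Furin were named after their values were seen. No 2 libraries of a group agreed within sampling noise. Simulated data with known changes were used to test the code. Alternatives were DESeq2 1.42.0 size factors, total counts, totals without mitochondrially encoded genes, deposited TPM, no filter, other pseudocounts, each oocyte left out, metaphase II oocytes of prefix Y01 left out (GV oocytes of that prefix kept), and differences within title prefixes. Other steps ran in Python 3.11.15 with SciPy 1.17.1, NumPy 2.4.6, Matplotlib 3.10.9 and pandas 2.3.3.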

Additional observations from a re-analysis of the deposited data

How the results depend on the processing

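The 12 differences of Zp1, Zp2 and Zp3 between metaphase II and GV oocytes stayed past the rule in all 174 alternatives run. With an oocyte left out in turn, the members past the rule numbered 1 to 3 in GV 12m against GV 6wk (2 with all oocytes), 0 to 2 in IVM-MII 12m against IVM-MII 6wk (0), 0 to 2 in MSC-IVM-MII 6wk against IVM-MII 6wk (0) and 0 to 1 in MSC-IVM-MII 12m against IVM-MII 12m (0). Without the metaphase II oocytes of prefix Y01 they numbered 2 between the ages of IVM-MII and 1 between MSC-IVM-MII 6wk and IVM-MII 6wk. The cause was not tested. No other scaling, filter or pseudocount changed a call on a member. The other counts stayed within 1.5 times in every alternative, and so did the count of 10 of 12 ratios to Zp3, at 9 with a pseudocount of 0.1 TPM and 10 to 12 with an oocyte left out. Another scaling moved the median of all genes by up to 0.29. A called difference is at least 1 by the rule, so it exceeds this shift by construction. Zp1 in GV 12m against GV 6wk, at −1.07, lay past 1 by less than that shift, although its call held under each scaling. No paired analysis was possible because the labels give no replicate numbers that pair oocytes across groups; the differences within title prefixes compare sets of oocytes. Each group holds 3 oocytes with no animal named, and summed counts of a member were 514 or more in every group.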

Other observations

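The short 3′ untranslated regions of the zona genes prompted a count over other genes with this feature, made after the data were seen and given as a description. Of 10673 tested genes with an annotated 3′ untranslated region, 193 have one of at most 50 bases in their principal transcript. Zp1, Zp2 and Zp3 are among them. Of these 193 genes, 61.1% were lower in MSC-IVM-MII 12m and 56.5% in IVM-MII 12m than in GV 12m oocytes, and 59.1% in MSC-IVM-MII 6wk and 59.6% in IVM-MII 6wk than in GV 6wk oocytes. Over all 12037 genes tested, with or without such an annotated region, the shares were 28%, 25.5%, 27.3% and 28.3%. The median differences of the 193 genes were −2.47, −2.30, −2.17 and −2.50. Whether gene length, level or annotation differs between these genes and the rest was not tested.

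The 2 metaphase II oocytes of prefix Y01 did not resemble each other in every member. MSC-IVM-MII 6wk oocyte 1 held 539 TPM of Zp1 and 586 TPM of Zp3, and IVM-MII 6wk oocyte 1 held 39.1 and 136 TPM of them. Both held high Astl, 273 and 448 TPM, and high Zp2, 109 and 86.2 TPM. Their Umodl1, at 229 and 180 CPM, lay below that of all other metaphase II oocytes. Their Fetub, at 9.27 and 4.94 CPM, lay within the range of the others. GV 6wk oocytes 1 and 2 also bear prefix Y01. They held 201.74 and 405 TPM of Astl, against 102.67 TPM in GV 6wk oocyte 3, of prefix Y03. Their Zp2, at 406.88 and 683 TPM, and Zp1, at 1236 and 1276 TPM, were likewise above its 133 and 671 TPM. Their Zp3, at 7295 and 6956 TPM, lay below its 9653 TPM. The cause was not tested.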
